A study of Mus musculus with 48 samples.

Results

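The comparison described here sets 3 libraries labelled KO against 3 labelled WT from the medial prefrontal cortex of female mice, 6 of the 48 libraries of the series. The members were taken by their column names in the table of gene counts, F_KO_P and F_WT_P with replicate numbers 1 to 3, and the measure is the change of every gene between these groups, genes of striatal neurons included. The KO group is the strain 129/Sv-Cyp2e1tm1Gonz/J, which carries a targeted allele of Cyp2e1 in all tissues, and the WT group is the strain 129S1/SvImJ. All mice of both groups were co-housed on normal chow to 16 weeks of age, with no treatment named. Polyadenylated RNA of the whole dissected piece was sequenced. WT animals were a separate strain and are not stated to be littermates, so differences between the strains other than the targeted allele cannot be told apart from it. The labels give replicate numbers but do not say that libraries came from separate animals, so the p-values measure the spread between these libraries.

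Cyp2e1 encodes a P450 enzyme, best known from the liver, whose substrates include ethanol. The medial prefrontal cortex is a layered cortical area built of glutamatergic pyramidal neurons, GABAergic interneurons and glia. The striatum lies beneath the frontal cortex, and its projection neurons are GABAergic cells that read dopamine through D1-type receptors (the direct pathway, with substance P and dynorphin as peptides) or D2-type receptors (the indirect pathway, with enkephalin and a receptor for adenosine). Receptor signals converge in these cells on adenylyl cyclase, cAMP and the phosphoprotein DARPP-32.

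Upstream sequences of 3 genes that carry the results are given first, since they show the start of the targeted gene and of the dopamine receptor genes that mark the D2-type and D1-type striatal neurons. Each is the 250 bases before a transcript start in RefSeq (GRCm38.p6, reference sequence of another build than the count table), written 5′ to 3′ on the strand of the gene. Capitals mark GC boxes (GGGCGG on either strand) in the dopamine receptor genes and the TATA box (TATAAA on either strand) in Cyp2e1. Drd2 lies on the plus strand at chr9:49340153-49340402, Drd1 on the minus strand at chr13:54055659-54055908 and Cyp2e1 on the plus strand at chr7:140763569-140763818.
Drd2: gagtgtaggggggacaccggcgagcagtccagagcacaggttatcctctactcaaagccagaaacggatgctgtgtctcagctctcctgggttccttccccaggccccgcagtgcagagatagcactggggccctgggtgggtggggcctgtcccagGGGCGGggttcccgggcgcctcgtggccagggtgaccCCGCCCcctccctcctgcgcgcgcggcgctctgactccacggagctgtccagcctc
Drd1: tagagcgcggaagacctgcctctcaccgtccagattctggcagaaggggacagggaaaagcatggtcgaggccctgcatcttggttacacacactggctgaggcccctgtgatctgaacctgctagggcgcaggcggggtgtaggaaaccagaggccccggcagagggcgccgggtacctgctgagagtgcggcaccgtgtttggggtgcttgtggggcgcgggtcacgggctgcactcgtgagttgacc
Cyp2e1: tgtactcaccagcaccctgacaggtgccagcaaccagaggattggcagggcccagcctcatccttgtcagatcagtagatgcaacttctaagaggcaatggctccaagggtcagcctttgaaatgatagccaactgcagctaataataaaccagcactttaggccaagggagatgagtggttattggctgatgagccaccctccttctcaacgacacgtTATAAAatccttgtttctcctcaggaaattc
The Drd2 window held 2 GC boxes and the Drd1 window none, and a GC box stood in 32.7% of the 32851 windows of the same length. The Cyp2e1 window held 1 TATA box, a motif found in 12.4% of those windows. Of the 40 genes that passed the test below, 27 had an entry among these windows.

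The targeted gene was read first as a check of the labels. Cyp2e1 (chromosome 7, 140343652 to 140354900, mm39) had 34, 47 and 57 counts in the female libraries labelled KO and 4, 1 and 0 counts in those labelled WT. The groups did not overlap, and the library labelled KO with the fewest counts stood well above every WT library. Pooled over libraries and scaled to depth, the ratio of KO to WT was 26.9, with an exact 95% interval of 11.2 to 84.1 that covers counting error only (adjusted p = 0.000969, edgeR quasi-likelihood test). The direction goes against the genotype label, the counts do not resolve exons, and every direction below is therefore one between libraries labelled KO and libraries labelled WT. Female libraries held 5982 to 7966 counts of Xist, the RNA of the inactive X chromosome, which matches their sex label.

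Total counts of the 6 female libraries ran from 15163075 to 17102464 and the share of mitochondrially encoded RNA from 2.97% to 3.68%. Pyramidal neuron genes were high in all of them, with Slc17a7, the vesicular glutamate transporter of these neurons, between 1700 and 1938 CPM (counts per 1000000 counts, on library sizes scaled by TMM). The protocol text names liver lysates, while Alb, the gene of serum albumin, had 0 to 2 counts per female library, and the 11 liver genes listed without Ttr summed to 3 to 11 counts. Between 2 libraries of a female group, the chi-square per degree of freedom was at least 3.73, so no library was a repeat of another.

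Of 17067 genes tested over the 12 prefrontal libraries, 40 differed between female KO and female WT at an adjusted p under 0.05, which is 0.234% of the genes tested. The change was mostly upward: 33 genes were higher in the libraries labelled KO (0.193%) and 7 were lower (0.041%). At an unadjusted p under 0.05 there were 1043 genes, and the median log2 change over all tested genes was -0.00055. Called genes fell into recognisable groups: 9 were also called after each female library had been left out in turn, 12 belonged to the lists of striatal projection or cholinergic neurons, and 19 were others. Of the 40, 30 had an adjusted p above 0.02. In all 40 the 3 KO libraries lay wholly above or below the 3 WT libraries, a separation that 5.72% (above) and 5.61% (below) of all tested genes showed.

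A run of 4 neighbouring genes of chromosome 5 was about 2-fold higher in the libraries labelled KO. Klhl8, a Kelch-repeat protein (chromosome 5, 104009839 to 104059125, mm39), measured 69.4, 73.4 and 77.8 CPM in KO and 35.9, 34.2 and 34.4 CPM in WT, a log2 change of 1.08 with a standard error of 0.06 (adjusted p = 1.4e-07, edgeR). Nudt9, a hydrolase of ADP-ribose (104194172 to 104213245), measured 78.3, 73.1 and 74.8 CPM against 38.1, 37.1 and 36.6 CPM. The 3 libraries of a group lay close together for both genes, and the groups were far apart.

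Aff1, a scaffold of transcription elongation complexes (103840240 to 104003188), rose by 0.95 ± 0.09 (log2, SE), from 16.1 ± 0.758 to 31.2 ± 0.971 CPM (SD, n = 3 libraries per group). Hsd17b11, a lipid droplet dehydrogenase of the hydroxysteroid family (104137628 to 104169785), rose by 0.94 ± 0.09, from 33.8 ± 2.18 to 64.8 ± 5.16 CPM. These 4 were all of the tested genes between the start of Aff1 and the end of Nudt9. Within 1 Mb on either side, 15 genes were tested in all and no further one was called. Ptpn13, the nearest tested neighbour before Aff1, measured 13.7 ± 1.65 CPM in KO and 14.2 ± 2.00 CPM in WT, and Sparcl1, which follows Nudt9, measured 1556 ± 35.2 and 1612 ± 65.3 CPM. The step in level thus lay between adjacent tested genes at both ends. In the M-prefix (male) libraries these 4 genes were called higher as well, with log2 changes of 0.81 for Klhl8, 0.85 for Nudt9, 1.18 for Aff1 and 0.82 for Hsd17b11. Pkd2 and Thoc2l, beyond Nudt9 in the same window and named after their values had been seen, were also called higher in male libraries. Their log2 changes were 0.44 and 0.47 there, and 0.03 and -0.08 in female libraries.

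**Figure D1:**
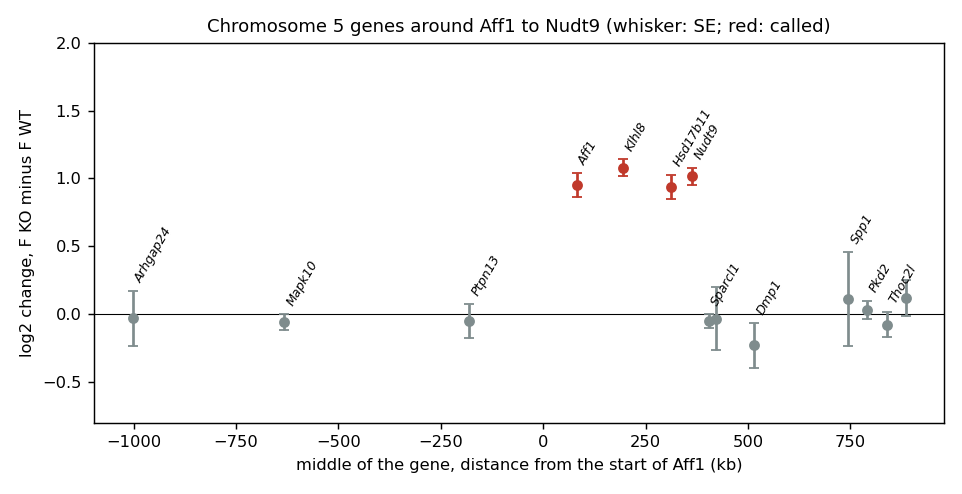
Log2 change between female libraries labelled KO and WT (vertical axis, with its standard error) for the 14 tested chromosome 5 genes with a mean of at least 10 counts, against the distance of the middle of each gene from the start of Aff1 in kb. The 4 called genes, in red, sit between 0.94 and 1.08, and the other genes shown sit between -0.23 and 0.12. Zfp951, named after its values had been seen, is tested but not shown (mean count 9.83). Its log2 change was -0.99 with a standard error of 0.46, and it was not called.

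Other genes with tight groups lay on further chromosomes. Glo1, the glyoxalase that detoxifies methylglyoxal (chromosome 17, 30803910 to 30845845, mm39), measured 72.1, 64.6 and 64.2 CPM in KO and 145, 134 and 131 CPM in WT, a log2 change of -1.03 with a standard error of 0.08 (adjusted p = 3.0e-06, edgeR). Dnah8 lies over Glo1 in the other orientation, and whether reads were counted by strand is not given in the sources used here. Ttll12, a member of the tubulin tyrosine ligase-like family (chromosome 15, 83459291 to 83479358), measured 19.2, 17.3 and 18.8 CPM against 8.33, 8.98 and 8.68 CPM, a log2 change of 1.09.

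Also on chromosome 17, 2 RNA genes with placeholder names were lower, both named here after their values had been seen. Gm10503 (chromosome 17, 31139312 to 31182194) had 721 counts over the WT libraries and 1 count over the KO libraries. The WT to KO ratio was 741, with an exact 95% interval of 133 to 29290 that covers counting error only. Gm50240 (30795274 to 30801568) measured 3.35, 2.04 and 2.65 CPM in KO and 8.59, 6.62 and 7.55 CPM in WT. Glo1, Gm50240 and Gm10503 thus lie near each other, all between 30795274 and 31182194 of chromosome 17. Male libraries moved the same way for each of Glo1, Ttll12, Gm10503 and Gm50240, and none of the 9 genes of this kind passed the test of a difference between female and male libraries. They are Cyp2e1, Klhl8, Nudt9, Aff1, Hsd17b11, Ttll12, Glo1, Gm10503 and Gm50240.

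Gba2, the non-lysosomal glucosylceramidase, named after its values had been seen, rose by a smaller step. It measured 94.7, 101 and 102 CPM in KO and 71.9, 79.6 and 74.3 CPM in WT, a log2 change of 0.40, and the log2 change in male libraries was 0.51.

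Genes of striatal projection neurons were higher in the female libraries labelled KO as a group, and 2 of the 3 libraries carried most of the rise. Of 29 listed genes 28 were tested, and 11 were called higher and 0 lower (0.193% and 0.041% of all genes tested). A log2 change above 0 and an unadjusted p under 0.05 were found for 28 of 28. Over all 17067 genes tested, 8495 had a log2 change above 0, and 1043 had an unadjusted p under 0.05 in either direction. DESeq2 called 16 of the striatal members, all higher, beside 94 of its 33364 genes. The 28 members had a median log2 change of 1.34, with a range of 0.44 to 2.89, beside -0.00055 over all genes tested. Libraries KO 2 and KO 3 both lay above every WT library for 28 of 28 members, a pattern shown by 13.2% of all genes tested. KO 1 lay above every WT library for 20 members and within the WT range for 8, beside 4398 and 8605 of the 17067 genes tested. WT 1 was the highest WT library for 25 members.

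Summed over the tested members, the level was 1662 CPM in KO 1, 3196 in KO 2 and 2981 in KO 3, against 1568, 1126 and 1234 CPM in WT 1, WT 2 and WT 3. KO 1 and WT 1 were close to each other, and the groups did not overlap. Striatal genes in a cortical piece can be higher through more striatal cells or through more RNA per cell, and in bulk RNA these cannot be told apart.

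**Figure D2:**
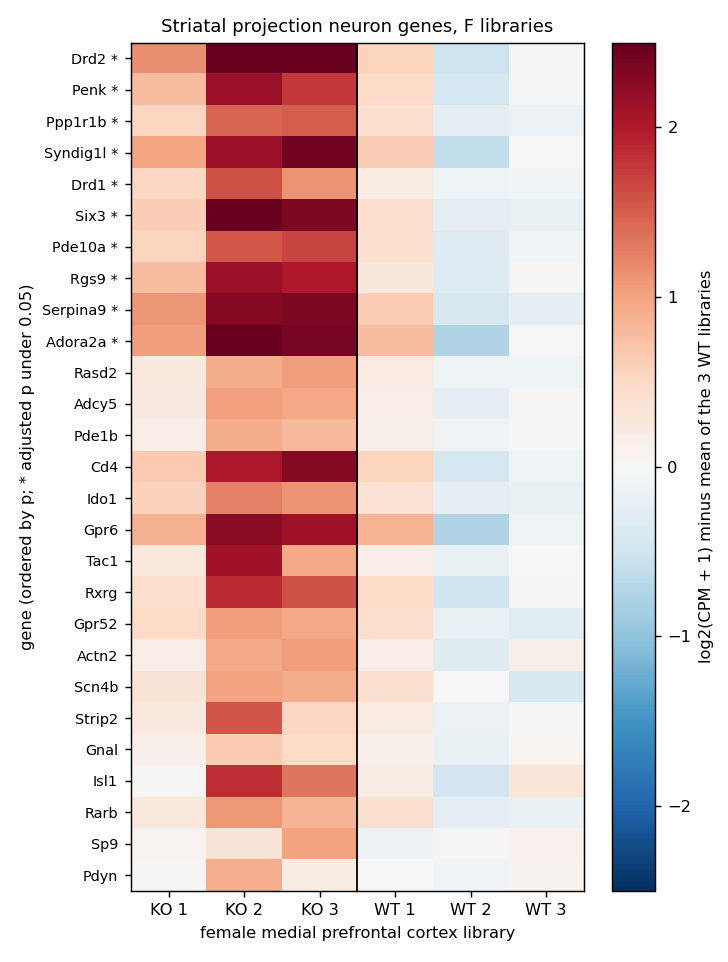
Level of 27 tested striatal projection neuron genes (rows, ordered by p) in the 6 female prefrontal libraries (columns), as log2(CPM + 1) minus the mean of the 3 WT libraries, with the colour scale ending at 2.5 either way. KO 2 and KO 3 are higher across the rows, KO 1 is close to WT 1, and asterisks mark the 10 called genes shown.

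Among genes of the indirect pathway, Drd2, the D2 dopamine receptor whose upstream sequence stands above (chromosome 9, 49251927 to 49319477, mm39), measured 14.7, 42.0 and 41.5 CPM in KO and 9.30, 3.93 and 5.83 CPM in WT. KO 1 was nearer to WT than to the other KO libraries, though no library overlapped, and the log2 change was 2.37 with a standard error of 0.38 (adjusted p = 0.022, edgeR). Penk, the precursor of enkephalin (chromosome 4, 4133531 to 4138819), measured 84.4, 222 and 170 CPM against 68.2, 35.7 and 48.2 CPM, a log2 change of 1.65. Adora2a, the adenosine receptor of these neurons, measured 21.4, 62.2 and 55.1 CPM against 17.7, 5.44 and 9.75 CPM. All 3 were called, and in each of them KO 1 and WT 1 were the closest libraries of the opposite groups.

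Genes of the direct pathway moved less evenly. Drd1, the D1 dopamine receptor (chromosome 13, 54205202 to 54209724), measured 29.5, 63.5 and 45.7 CPM in KO and 23.2, 18.8 and 19.4 CPM in WT, and was called at a log2 change of 1.18 (SE 0.22, adjusted p = 0.039, edgeR). The peptide genes of these neurons did not pass, and both are named here after their values had been seen. Tac1, the precursor of substance P, measured 18.2, 67.7 and 30.2 CPM against 17.0, 13.2 and 15.2 CPM (adjusted p = 0.14). Pdyn, the precursor of dynorphin, measured 35.5, 66.3 and 39.6 CPM against 34.6, 32.4 and 37.1 CPM (adjusted p = 0.60). KO 2 was the highest library for Drd1, Tac1 and Pdyn. Per kilobase of gene model, the ratio of the Drd2 level to the Drd1 level was 0.707, 0.943 and 1.29 in KO and 0.570, 0.299 and 0.427 in WT. The groups did not overlap in that ratio either, a value given with no test. In male libraries the order was turned, at 0.242 to 0.491 in KO and 0.913 to 0.972 in WT. In both sexes the group with the higher ratio also had the higher summed level of the striatal list. That sum was 1662 to 3196 CPM in female KO and 1126 to 1568 CPM in female WT. It was 1076 to 1250 CPM in male KO and 1724 to 2178 CPM in male WT. The part of the total striatal level, or of RNA from cortical cells, in this ratio was not tested.

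Further called members act downstream of the receptors or at the membrane. Ppp1r1b, which encodes DARPP-32 (chromosome 11, 98239230 to 98248622), measured 174, 332 and 346 CPM in KO and 158, 101 and 108 CPM in WT, a log2 change of 1.21 with a standard error of 0.22 (adjusted p = 0.031, edgeR). KO 2 and KO 3 were close to each other, and KO 1 lay just above WT 1. Pde10a, the phosphodiesterase of these neurons, rose by 1.33, Rgs9, a regulator that shortens G protein signals, by 1.80, and Syndig1l, a membrane protein also known as capucin, by 1.99 on the log2 scale.

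Six3, a homeobox factor of developing striatal neurons (chromosome 17, 85921036 to 85936730), was the called member with the largest log2 change, 2.89. It measured 1.97, 11.3 and 8.82 CPM against 1.61, 0.656 and 0.714 CPM. Six3os1, on the opposite strand and overlapping Six3, rose as well, and without a stated strand setting the reads of this pair cannot be told apart. Serpina9, a serine protease inhibitor on the striatal list, rose by 2.48. The 17 tested members that were not called had log2 changes of 0.44 to 2.25 and adjusted p of 0.057 to 0.60. Nearest to the threshold among them were Rasd2, the small G protein Rhes, at 109, 177 and 191 CPM against 106, 85.4 and 85.0 CPM, and Adcy5, the main adenylyl cyclase of striatal neurons, at 245, 430 and 409 CPM against 235, 183 and 216 CPM, a pair named after their values had been seen.

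**Figure D3:**
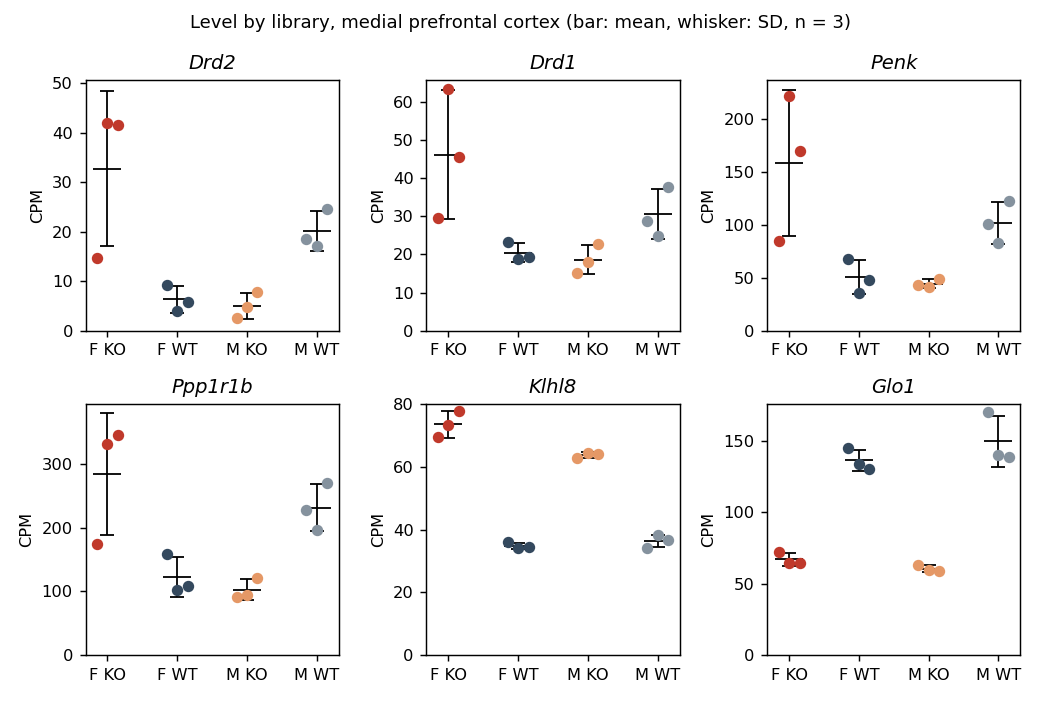
Level in CPM of Drd2, Drd1, Penk, Ppp1r1b, Klhl8 and Glo1 in each of the 12 prefrontal libraries, by group (points, replicates 1 to 3 from left to right; bar and whisker, mean and SD of 3 libraries). The striatal genes have a low first point in female KO and the opposite order of KO and WT in male libraries, while Klhl8 and Glo1 form tight groups in the same order in both.

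The called genes of the dopamine, cAMP and DARPP-32 pathway were all higher. Of 49 tested genes 7 were called higher and 0 lower, beside 0.193% and 0.041% of all genes tested. DESeq2 called 10, all higher, beside 94 of its 33364 genes. An unadjusted p under 0.05 was found for 17, beside 1043 of the 17067 genes tested. The median log2 change was 0.04, beside -0.00055 over all genes tested. The 7 were Drd2, Ppp1r1b, Drd1, Pde10a, Rgs9, Gng7 and Pde7b, of which 5 are also on the striatal list. Gng7, a G protein gamma subunit that couples striatal receptors to adenylyl cyclase, measured 151, 304 and 261 CPM in KO and 134, 93.5 and 109 CPM in WT. Pde7b, a cAMP phosphodiesterase, measured 43.5, 69.5 and 65.0 CPM against 40.4, 35.1 and 30.9 CPM. KO 1 was the lowest KO library for each of these genes, as it was for 29 of the 33 genes called higher.

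Genes known from striatum but expressed elsewhere too had smaller changes. All 15 were tested and none was called by edgeR, while DESeq2 called 7, beside 94 of its 33364 genes. An unadjusted p under 0.05 was found for 14, beside 1043 of the 17067 genes tested. The median log2 change of the 15 was 0.41. Bcl11b, a transcription factor of striatal and deep-layer cortical projection neurons, measured 107, 142 and 150 CPM in KO and 104, 88.6 and 93.0 CPM in WT (adjusted p = 0.086, edgeR). Foxp2, Tmem158 and Kcnab1 had log2 changes of 0.62, 0.54 and 0.48 and adjusted p of 0.060 to 0.062.

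Cholinergic neuron genes were low in level. Of 9 tested genes 1 was called higher and none lower, beside 0.193% and 0.041% of all genes tested. An unadjusted p under 0.05 was found for 9, beside 1043 of the 17067 genes tested. DESeq2 called 4, beside 94 of its 33364 genes, and the median log2 change was 2.23. Isl1, a tested member, is also on the projection neuron list. Lhx8, a LIM homeobox factor of forebrain cholinergic neurons, had 5, 27 and 20 counts in the KO libraries and 0, 0 and 1 in the WT libraries. The pooled ratio, of 52 counts to 1, was 50.6. Its exact 95% interval of 8.69 to 2037 covers counting error only (adjusted p = 0.038, edgeR). Chat, the enzyme that makes acetylcholine, measured 0.920, 4.39 and 3.76 CPM against 0.646, 0.262 and 0.714 CPM (adjusted p = 0.082, edgeR). Here too KO 2 and KO 3 were high and KO 1 was close to WT. Slc5a7, the choline transporter, had an adjusted p of 0.11.

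Septal and basal forebrain genes gave 1 call by edgeR. Of 15 tested, 1 was called higher (Lhx8, which is on both lists) and none lower, beside 0.193% and 0.041% of all genes tested. DESeq2 called 3, all higher, beside 94 of its 33364 genes, and the median log2 change was 0.56. An unadjusted p under 0.05 was reached by 6 of the 15, beside 1043 of the 17067 genes tested. In 6 of the 15 the KO libraries lay wholly above the WT libraries, beside 5.72% of all genes tested. Zic1, a zinc finger factor of septal neurons, measured 17.7, 18.7 and 49.5 CPM in KO and 13.2, 12.9 and 16.2 CPM in WT. Its high level was in KO 3 alone (log2 change 1.02, adjusted p = 0.35, edgeR). Of the 28 striatal members, KO 2 was the highest library for 19 and KO 3 for 9.

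Of the 19 called genes outside those groups, 15 were higher, and 13 of the 15 had a log2 change below 0 in male libraries. Lrrc10b, a leucine-rich repeat protein, measured 13.5, 34.6 and 32.6 CPM in KO and 8.39, 2.10 and 3.92 CPM in WT. Ecel1, a neuronal endopeptidase-like protein, measured 6.24, 14.1 and 10.8 CPM against 4.33, 2.75 and 3.81 CPM. Nexn, the actin-binding protein nexilin, rose by 1.25 on the log2 scale. The order of the female libraries in Lrrc10b and Ecel1 was that of the striatal list, with KO 1 the lowest of the KO libraries and WT 1 the highest of the WT ones. Chosen after their values had been seen, Rasgrp2, a calcium-regulated activator of Rap, rose by 1.05, the potassium channel gene Kcna5 by 1.52, the calcium-binding protein gene Necab2 by 0.70 and Id4, an inhibitor of DNA-binding factors, by 0.48.

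Genes of cortical cells gave almost no calls. In the excitatory neuron list 0 of 16 tested genes were called by edgeR or by DESeq2, and the median log2 change was -0.09. An unadjusted p under 0.05 was found for 3, beside 1043 of the 17067 genes tested. A log2 change above 0 was found for 3, beside 8495 of the 17067. In 4 of the 16 the KO libraries lay wholly below the WT libraries and in 1 wholly above, beside 5.61% and 5.72% of all genes tested. The summed level of that list was 9482 to 9863 CPM in KO and 10160 to 10463 CPM in WT, with no overlap between the groups. The mean log2 level of the same list, in which every gene weighs equally, did overlap, at -0.070 to -0.015 in KO and -0.024 to 0.053 in WT, relative to the mean of the 12 libraries. Slc17a7 itself measured 1901, 1700 and 1744 CPM against 1930, 1938 and 1928 CPM (adjusted p = 0.76, edgeR).

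Layer lists showed the same absence of calls by edgeR. Layers 2 to 4 had 0 of 17 called and a median of 0.02, layer 5 had 0 of 18 and 0.04, and layer 6 with subplate had 0 of 19 and -0.03, with 3, 3 and 4 genes at an unadjusted p under 0.05 and 0, 1 and 1 called by DESeq2. GABAergic interneuron genes had 0 of 30 called, 6 at an unadjusted p under 0.05, 1 by DESeq2 and a median of 0.00127. Astrocyte, myelin and microglial lists had 0 of 20, 0 of 22 and 0 of 18 called by either tool, with 2, 0 and 2 genes at an unadjusted p under 0.05 and medians between -0.05 and 0.00. Over all genes, 1043 of the 17067 tested had an unadjusted p under 0.05, and DESeq2 called 94 of 33364. Of 47 lists read, 36 had no called member.

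Markers of other tissue that could be in the piece stood as follows. Choroid plexus and ependymal genes summed to 14.4 to 19.7 CPM in KO and 8.65 to 9.51 CPM in WT. Of these, 0 of 10 were called by edgeR, and the median log2 change was 0.78. DESeq2 called 1, beside 94 of its 33364 genes, and 1 had an unadjusted p under 0.05, beside 1043 of 17067. Clic6, a chloride channel protein on that list, measured 1.18, 5.17 and 4.47 CPM against 0.839, 0.590 and 0.773 CPM (adjusted p = 0.11). Meningeal fibroblast genes had 0 of 14 called by either tool, 1 at an unadjusted p under 0.05 and a median of 0.22. Olfactory bulb genes had 0 of 13 called by either tool, 0 at an unadjusted p under 0.05 and a median of 0.23.

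Immediate early genes, which neurons switch on with activity, varied between the replicates of both groups. Their summed level was 1363, 2798 and 3420 CPM in KO and 1097, 2045 and 2821 CPM in WT, so replicate 1 was the lowest library in both. In male libraries replicate 1 was the lowest as well, at 1073 CPM in KO and 1135 CPM in WT. None of the 31 was called by edgeR or DESeq2, and the median log2 change was 0.31. An unadjusted p under 0.05 was found for 3, beside 1043 of the 17067 genes tested. KO 1 had the lowest striatal sum of its group and the lowest immediate early gene sum, whereas WT 1 had the highest striatal sum of its group (1568 CPM) and the lowest immediate early gene sum. The part of either in the other was not tested. Homer1, a postsynaptic scaffold gene, measured 177, 205 and 288 CPM against 187, 163 and 191 CPM (adjusted p = 0.78).

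The male libraries of the same region allow a test of whether the change differs between the sexes. In male libraries 1114 genes (6.53% of those tested) were called between KO and WT. At an adjusted p under 0.05 the difference between female and male libraries was called for 274 genes (1.61% of those tested), 136 with a higher and 138 with a lower log2 change in female libraries. Of the 33 genes called higher in female libraries 24 were among them, and of the 7 called lower 0 were. The 33 split by direction: 25 had a log2 change below 0 in male libraries, where 15 were called lower (background 2%), and 8 had one above 0, where 7 were called higher (background 4.52%).

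Striatal genes were on the first side of that split. Their median log2 change was 1.34 in female and -0.99 in male libraries. The difference was called for 21 of the 28, beside 1.61% of all genes tested. Summed levels of the list were 1076 to 1250 CPM in male KO and 1724 to 2178 CPM in male WT, so the order of the groups was turned, and female KO 2 and KO 3 were the highest of the 12 libraries. Drd2 changed by 2.37 in female and -2.03 in male libraries, a difference of 4.39 with a standard error of 0.56 (adjusted p = 0.0032, edgeR). Ppp1r1b changed by 1.21 and -1.18, and Penk by 1.65 and -1.20.

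**Figure D4:**
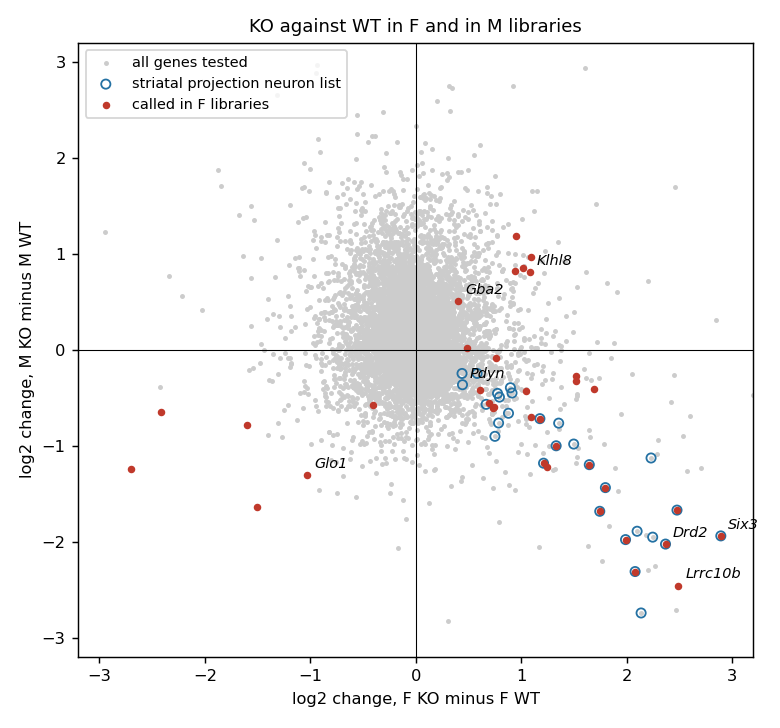
Log2 change between libraries labelled KO and WT in female (horizontal) and male (vertical) prefrontal cortex for all 17067 tested genes; 4 called genes lie outside the axis limits of 3.2. Genes called in female libraries (red) fall on the diagonal side with Klhl8, Gba2 and Glo1, or at lower right with the striatal list (blue rings).

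The striatal calls depended on which libraries entered the fit. Without KO 2, without KO 3, without WT 2 or without WT 3, 0 striatal members were called by edgeR, and the total number of calls fell to 10, 10, 10 and 9. Without KO 1 the total was 155 with 25 striatal members, and without WT 1 it was 35 with 12. The median log2 change of the striatal list stayed between 1.14 and 1.66 over these 6 settings. With KO 1 as the only KO library, a choice made after seeing the data that assumes it varies like the other libraries, the median was 0.51, 7 genes were called and 0 of them were striatal. Those 7 were Klhl8, Nudt9, Aff1, Hsd17b11, Ttll12, Glo1 and Gm10503.

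**Figure D5:**
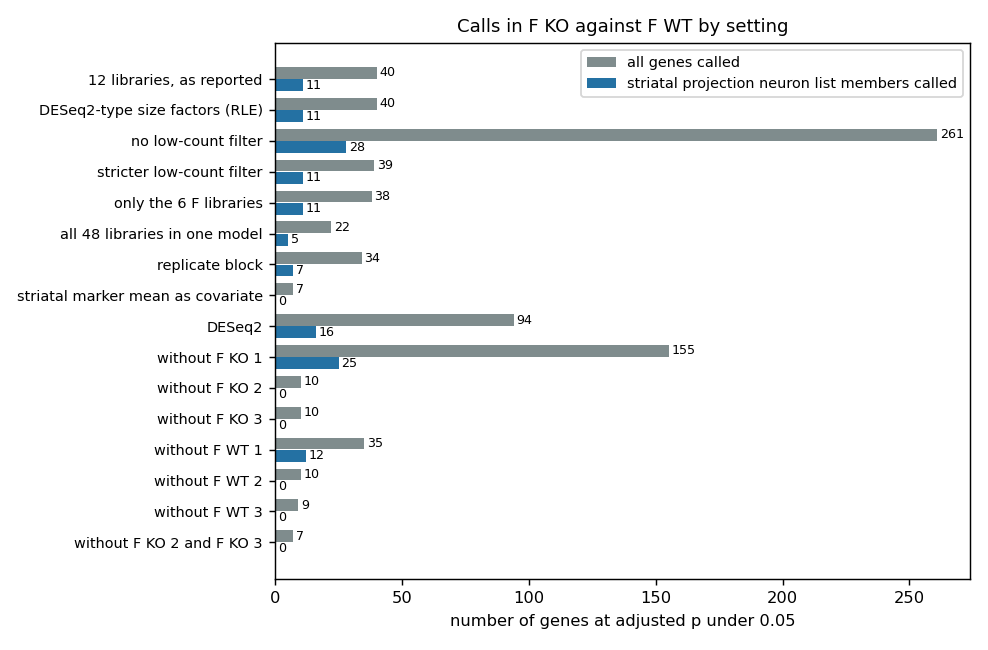
Number of genes called between female libraries labelled KO and WT (grey bars) and of striatal projection neuron genes among them (blue bars) in each setting. The total runs from 7 to 261 and the striatal number from 0 to 28, and 9 genes are called whichever single female library is left out.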

How the data were processed

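Per the labels, RNA was polyA-selected, and libraries were made from medial prefrontal cortex. HISAT2 2.0.5, DESeq2 and mm39 are named in the submitters' processing notes; the counting tool, strand setting and annotation release are not given in the sources used here. The authors deposited raw counts per gene with coordinates for 56748 genes. Here edgeR 4.0.16 (R 4.3.3) was fitted to the counts of the 12 prefrontal libraries (14559295 to 20781996 counts each), with TMM scaling, filterByExpr (minimum count 10, minimum total 15), 4 group means, quasi-likelihood F tests and Benjamini-Hochberg adjustment over 17067 genes. SE is the absolute log2 change divided by the square root of F. The procedure was run on simulated counts drawn independently for each gene. That setting holds no genes that move together between libraries, as the striatal genes do, so it does not bear on the striatal calls. Alternatives were RLE scaling, other filters, other sets of libraries, a replicate block, the striatal mean as covariate, DESeq2 1.42.0 and leaving out libraries. Same-numbered female libraries had correlations of residuals of 0.123, 0.00907 and 0.192, and differently numbered ones ran from -0.223 to 0.0907. The labels do not say that a number marks a shared animal or batch, so the main fit has no replicate block. Some levels did go by number. The mean log2 level of mitochondrially encoded genes fell from replicate 1 to replicate 3 in each of the 4 groups. It went from 0.18 to -0.19 in female KO, 0.19 to -0.18 in female WT, 0.10 to -0.08 in male KO and 0.17 to -0.17 in male WT. Their summed level did not fall in male KO, at 28652 and 28753 CPM. Whether replicates of a number share a batch was not tested.

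Members and gene lists were chosen with earlier results of these data known. Named genes were Cyp2e1, 7 genes of an earlier list, the 12 called genes each way with the smallest p (mean count at least 10, no placeholder name), the 10 striatal genes with the smallest p, 4 from each other list with 2 called members or a median 0.2 from that of all genes, and the 4 genes with the smallest p for the difference between sexes. Some genes that these rules name are not reported here, but they stay in every count.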

Additional observations from a re-analysis of the deposited data

Results flagged for a closer look

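The test of the difference in KO against WT between female and male prefrontal libraries called 274 genes (edgeR quasi-likelihood test). Among the named genes of striatal neurons, the female minus male difference in log2 change was 4.39 for Drd2, 2.84 for Penk, 2.39 for Ppp1r1b, 3.97 for Syndig1l, 1.90 for Drd1, 4.83 for Six3, 2.33 for Pde10a, 3.24 for Rgs9 and 4.15 for Serpina9. For genes of striatum with other sites of expression it was 0.84 for Foxp2, 0.88 for Tmem158, 0.95 for Kcnab1 and 0.70 for Bcl11b. Cholinergic genes gave 7.20 for Lhx8, a value that rests on 1 count in female WT, and 5.18 for Chat. For Clic6, on the choroid plexus list, it was 3.38.

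Other named genes called for this difference were Lrrc10b at 4.95, Ecel1 at 1.79, Six3os1 at 5.33, Nexn at 2.47, Gng7 at 1.79 and Pde7b at 1.35. All of these differences are positive, that is, the log2 change was higher in female libraries. Most of these genes were named by their p in the female comparison, where they were higher, which favours that sign. Over all 274 genes called for the difference, 136 were positive and 138 negative. The striatal marker level also differed between libraries within the female KO group (1662, 3196 and 2981 CPM), and its part in the difference between the sexes was not tested.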

How the results depend on the processing

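The total number of calls, those higher, those lower, the striatal calls and the calls for the difference between sexes were 40, 33, 7, 11 and 274. They were 261, 221, 40, 28 and 1078 with no low-count filter, which nearly doubles the genes tested to 33364, and 94, 83, 11, 16 and 592 with DESeq2. All 48 libraries in one model gave 22, 17, 5, 5 and 43. With the striatal marker mean as covariate, which takes out the axis on which the striatal genes lie, they were 7, 5, 2, 0 and 0, the striatal median was 0.014, and Cyp2e1 changed by 4.03 (adjusted p = 0.314). Under that covariate the log2 change turned to -0.060 for Six3, -0.16 for Chat, -0.23 for Slc5a7, -0.21 for Homer1, -0.38 for Dlx5, -0.031 for Sox11 and -0.22 for Ier5. Leaving out each female library in turn gave 9 to 155 calls, 6 to 139 higher, 3 to 16 lower and 0 to 25 striatal, and the log2 change of Ier5 ran from -0.019, without KO 3, to 0.34. Leaving out each of the 12 libraries gave 59 to 800 calls for the difference. Without both KO 2 and KO 3, added after seeing the data, the counts were 7, 5, 2, 0 and 0, the striatal median 0.51, Cyp2e1 4.31 (adjusted p = 0.121), Homer1 -0.026 and Ier5 -0.13. The cause of these shifts was not tested.

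With the replicate block 34 genes were called, 28 higher and 6 lower, and striatal calls fell to 7. Correlations of same-numbered female libraries were 0.123, 0.00907 and 0.192, and those of differently numbered ones ran from -0.223 to 0.0907. A structure shared by replicate number is therefore not excluded. RLE scaling and a stricter filter (at least 1 CPM in 3 libraries) kept each count within 1.5 times, as did the 6 female libraries alone for the counts other than the difference between sexes, which that fit cannot give. Low counts limit Cyp2e1, Lhx8 and Gm10503.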
